A study of Rattus norvegicus with 13 samples.

Results

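Cytochrome P450 enzymes (Cyp), glutathione S-transferases (Gst) and UDP-glycosyltransferases (Ugt) are the 3 enzyme classes described here, in RNA of rat kidney glomeruli, the small vessel tufts where blood is filtered. Members were taken by name: every probe set whose only gene symbol in the platform annotation is Cyp followed by a digit, or begins with Gst or Ugt, with 1 probe set per gene, the one with the highest mean log2 signal over all samples. This gave 76 genes of 10412 genes with a probe set of 1 symbol, namely 53 Cyp, 16 Gst and 7 Ugt genes, from 82 probe sets. The rule itself uses no measured change, but it was set with earlier results of these data known. All 76 gene identifiers matched a RefSeq gene of the same symbol.

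All 13 arrays hold RNA of untreated Lewis-Hsd rats of 18 weeks, and replicates are labelled as biological. In the sieved group (titled iron, n = 4), iron oxide was perfused through 1 kidney of a rat, and glomeruli were then collected with sieve and magnet at a stated purity over 99% by phase contrast. The groups LCM800 (titled LCM 800, n = 5) and LCM20 (titled LCM 20, n = 4) hold glomeruli cut from 10 µm frozen sections of the opposite kidney by laser capture microdissection, with 2 rounds of RNA amplification. The protocol names about 800 glomerular cross-sections for both groups, so what the title number 20 counts is not stated. The sieved RNA is described without amplification, so kidney perfusion, isolation method and amplification all differ together between the sieved and the captured groups and cannot be told apart. The protocol text also mentions anti-Thy1.1 rats and a description field speaks of embryos, and neither matches the other labels.

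Cyp enzymes add oxygen to lipids, steroids and foreign compounds, drawing electrons from Por or, in mitochondria, from ferredoxin (Fdx1). Gst enzymes attach glutathione to reactive compounds, and most Ugt enzymes attach glucuronic acid, so that the products can be excreted. In the kidney many of these enzymes are known from the proximal tubule, where Cyp4a and Cyp2c enzymes also turn arachidonic acid into vasoactive lipids.

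Signals are MAS5 intensities, scaled by the authors so that the 2% trimmed mean of each array was 500.1, with array medians between 236 and 321. Differences are between means of log2(signal + 65.29), given ± SE of the fit, so the change of a dim gene is smaller than its ratio of signals. Two-sided adjusted p values come from limma over the 11106 probe sets left after the dimmest 30% were set aside, and "rose", "fell", "higher" and "lower" as a call mean an adjusted p under 0.05. Of the 76 genes, 49 were tested (33 Cyp, 13 Gst and 3 Ugt) and 27 were left out as dim (20, 3 and 4). Levels of different genes come from different probes and are not compared, and the probe sets of Cyp2c13, Cyp2c6v1, Cyp2j3 and Cyp51 carry a suffix for sequence shared between transcripts.

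Some arrays stood apart. Sieved replicate 3 correlated with the other sieved arrays at r = 0.87 to 0.90 over tested probe sets, while those 3 reached 0.96 to 0.98 with each other. LCM800 replicates 1 to 3 correlated with replicates 4 and 5 at 0.72 to 0.81, while replicates 4 and 5 correlated with LCM20 arrays at 0.86 to 0.91. The summed signal of 13 proximal tubule markers was 116516, 122426, 63474 and 105387 in the sieved arrays, 13360 to 21640 in LCM800 and 9370 to 26135 in LCM20, and none of these markers was at 0. All 13 were lower in each captured group against the sieved group. The summed signal of 7 podocyte markers was 18223 to 45686 in the sieved arrays, highest in replicate 3, and 39107 to 70106 and 34459 to 52041 in the captured groups. Of these 7, 3 were higher and 2 lower in LCM800, and 3 higher and 1 lower in LCM20, so they did not all move with the sum. Of 5 endothelial markers 3 and 4 were higher, with sums of 3970 to 14372 in the sieved arrays, 12367 to 15948 in LCM800 and 18429 to 25333 in LCM20. Of 4 leukocyte markers 3 and 2 were higher, with sums of 438 to 600, 1443 to 1926 and 920 to 1302. Of 5 mesangial markers 2 were higher in LCM800 and 0 in LCM20, and 0 were lower. Their sums were 648 to 2689, 1324 to 2813 and 772 to 1810. Of 2 erythrocyte markers 1 was higher in each comparison, and of 2 tested smooth muscle and juxtaglomerular markers 0 were called. Of 7 markers of the loop, distal tubule and collecting duct, 4 and 5 were lower and 1 and 0 higher, with sums of 17400 to 37857, 12515 to 19576 and 4225 to 11046. The 3′ signal of β-actin exceeded its 5′ signal by 0.53 to 0.57 log2 units in the sieved arrays, by 1.71 to 4.01 in LCM800 and by 1.33 to 2.29 in LCM20. Those of these values that differ between the groups move with every difference from the sieved group below, and their part in the results was not tested. In such bulk samples fewer cells of a type and less RNA per cell cannot be told apart.

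In both captured groups Cyp2c23, Cyp4a3, Cyp4f1 and Cyp2e1 fell by over 3 log2 units, and Gsta1, Gstt1, Gstp1, Ugt2b35 and Ugt8 fell as well. Cyp4f5, Cyp27a1, Cyp2j4, Gstm5 and Gstm7 rose in both, of which Cyp4f5 passed the filter on dim genes only through the captured groups. In LCM800 against sieved, 28 of the 49 tested genes were called, 12 higher and 16 lower, beside a background of 51.9% of all tested probe sets called, 31.8% higher and 20.1% lower. The calls were 10 higher and 8 lower for Cyp, 2 higher and 6 lower for Gst, and 0 higher and 2 lower for Ugt. In LCM20 against sieved, 27 of the 49 were called, 8 higher and 19 lower, beside 45.3% of all tested probe sets, 26.2% higher and 19.2% lower. Here 6 Cyp genes were higher and 11 lower, 2 Gst genes higher and 6 lower, and 2 Ugt genes lower. The whole count of calls was thus near the background in both comparisons, 57.1% and 55.1% of the tested members. Both comparisons use the same 4 sieved arrays, so they are not independent of each other. Without sieved replicate 3 the counts were 29 (12 higher, 17 lower) and 26 (7 higher, 19 lower). Without LCM800 replicates 1 to 3 the LCM800 count was 29 (11 higher, 18 lower). Without sieved replicate 3 as well, an alternative chosen after the values were seen, it was 31 (10 higher, 21 lower). Sieved and captured ranges did not overlap in 27 of the 49 genes for LCM800 (42.8% of all tested probe sets) and in 25 for LCM20 (43.8%).

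The filter bears on these counts. Of the 49 tested genes, 34 were above its level, a signal of 131, in all 3 groups, Cyp1a1 passed only through the sieved group, and 12 were not above it in the sieved group, so that tested dim genes had to be higher elsewhere. With no filter, 32 of all 76 genes were called in LCM800 against sieved (15 higher, 17 lower), beside 43.8% of all probe sets, 26.2% higher and 17.6% lower. In LCM20 against sieved 28 of 76 were called (10 higher, 18 lower), beside 36.8% of all probe sets, 19.8% higher and 17.0% lower. For Gst the unfiltered count was 10 of 16 in each comparison (62.5%), 3 higher and 7 lower. For Cyp it was 20 of 53 in LCM800 (37.7%), 12 higher and 8 lower, and 15 of 53 in LCM20 (28.3%), 6 higher and 9 lower. For Ugt it was 2 of 7 in LCM800, both lower, and 3 of 7 in LCM20, 1 higher and 2 lower.

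**Figure D1:**
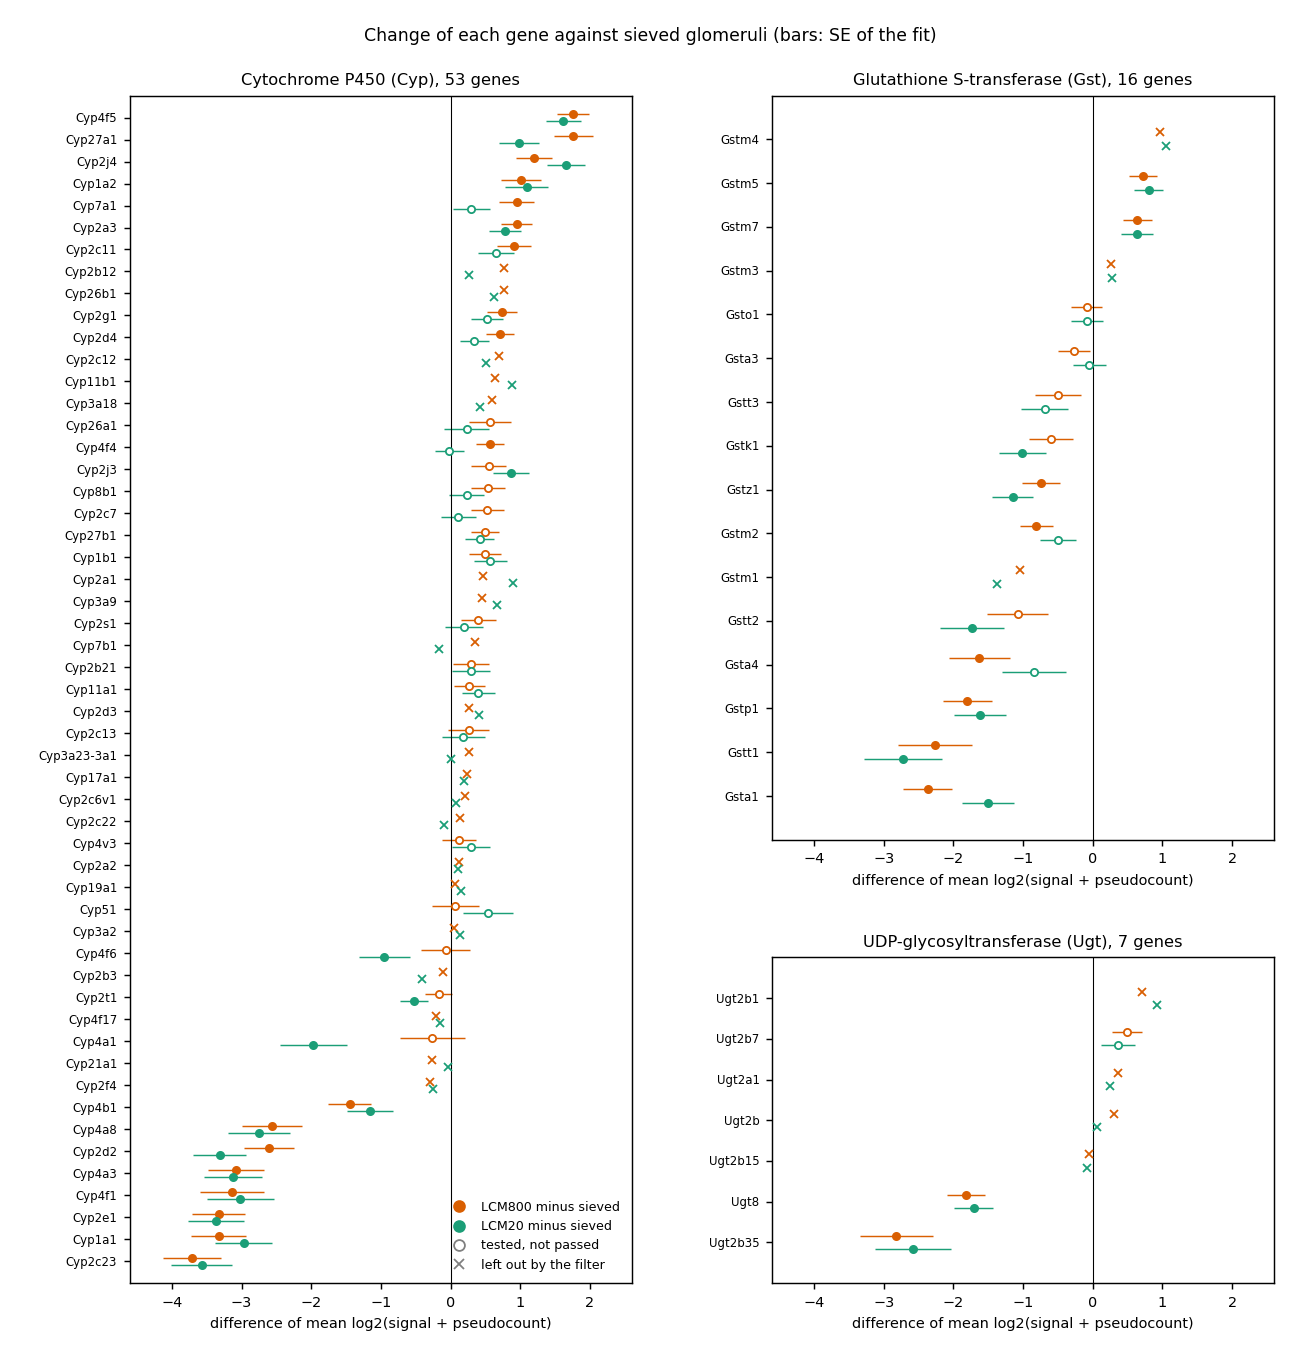
Difference of mean log2(signal + 65.29) from sieved glomeruli for each of the 76 genes in LCM800 (orange) and LCM20 (green), in 3 panels by enzyme class. Filled points passed the test, open points were tested and did not pass, crosses were left out as dim, and bars are the SE of the fit; the largest falls reach -3.71 (Cyp2c23) and the largest rises 1.76 (Cyp4f5 and Cyp27a1).

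Over all genes of a class, dim ones included, Gst had the lowest median, and no test was made between classes. The median difference was -0.67 for the 16 Gst genes in LCM800 and -0.77 in LCM20. It was 0.27 and 0.19 for the 53 Cyp genes and 0.30 and 0.06 for the 7 Ugt genes, where all tested probe sets had medians of 0.22 and 0.17. The Cyp and Ugt medians were near those of all tested probe sets at this pseudocount, although single members of both classes changed by over 2 log2 units. With no pseudocount the Cyp and Ugt medians were 0.73 and 0.55 in LCM800 and 0.41 and 0.37 in LCM20. All tested probe sets then had medians of 0.26 and 0.20. Those leave out dim probe sets, while the class medians include dim genes, so the gap is between unlike sets. Without LCM800 replicates 4 and 5 the Gst median in LCM800 was -0.26, and replicate 4 alone had the lowest Gst median of the 5 arrays, at -1.18. Sieved replicate 3 was the lowest of the sieved arrays for Gst, at -0.49, where the other sieved arrays lay at 0.05 to 0.23.

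**Figure D2:**
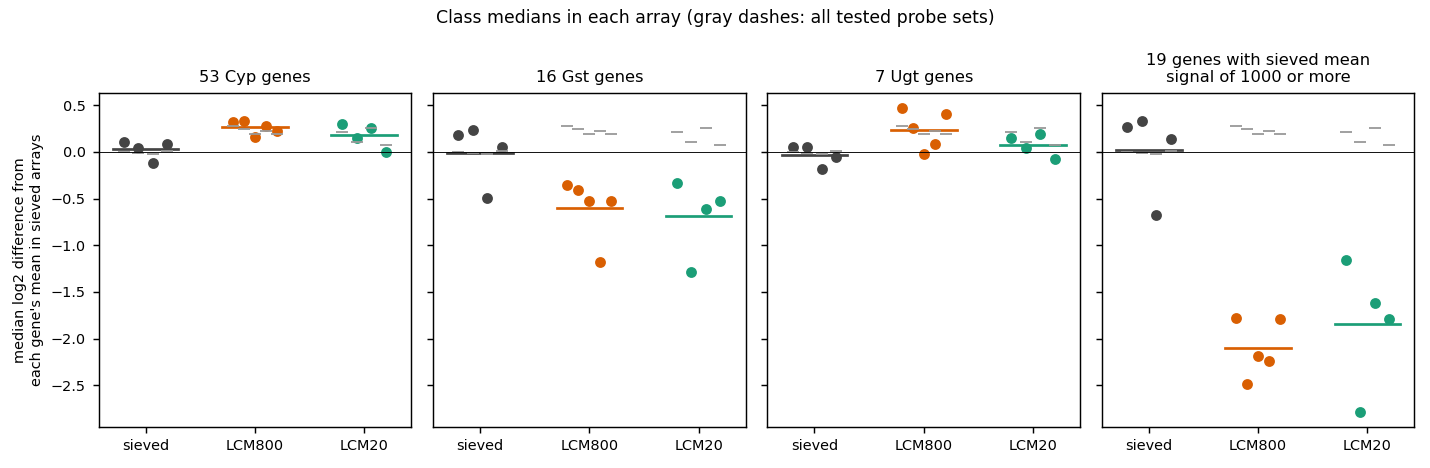
Median over genes of the log2 difference from each gene's mean in the sieved arrays, shown for each array in the 53 Cyp, 16 Gst and 7 Ugt genes and in the 19 genes with a mean sieved signal of 1000 or more. Points are arrays, coloured lines group means and gray dashes the median of all tested probe sets; every LCM800 and LCM20 point lies below every sieved point in the rightmost panel, whose genes were chosen by their sieved level.

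The direction of the calls differed between bright and dim members. Of 19 members with a mean sieved signal of 1000 or more, 14 were lower and 0 higher in LCM800, and 15 were lower and 0 higher in LCM20. Of all 2415 probe sets that bright, 49.6% were lower and 11.8% higher in LCM800, and 45.3% lower and 13.5% higher in LCM20. Of the 30 tested members under that signal, 12 were higher and 2 lower in LCM800, and 8 higher and 4 lower in LCM20. Of all tested probe sets under it, 37.4% were higher and 11.9% lower in LCM800, and 29.7% higher and 11.9% lower in LCM20. The level of 1000 was chosen after the values were seen and shares the sieved arrays with the difference itself, so the counts describe these genes and test nothing.

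The Cyp4 family, whose enzymes hydroxylate the far end of fatty acids, held some of the deepest falls. Of its 10 genes 9 were tested, of which 4 were lower and 2 higher in LCM800, and 6 lower and 1 higher in LCM20. These are 44.4% and 66.7% lower, beside 20.1% and 19.2% of all tested probe sets. Cyp4a1, Cyp4a3, Cyp4a8, Cyp4b1, Cyp4f1 and Cyp4v3 had a sieved mean of 1000 or more. Of these, all but Cyp4a1 and Cyp4v3 were lower in LCM800, and all but Cyp4v3 in LCM20. Among all probe sets that bright, 49.6% and 45.3% were lower. Cyp4f1, a hydroxylase of fatty acids and leukotrienes, had signals in replicate order of 10538, 9667, 4236 and 9810 in the sieved arrays, 1279, 597, 1053, 666 and 858 in LCM800 and 3004, 323, 1058 and 680 in LCM20. Its difference was -3.14 ± 0.46 in LCM800 (adjusted p = 5.14e-05) and -3.02 ± 0.48 in LCM20 (adjusted p = 0.000149). All 4 sieved arrays were above every captured array, replicate 3 lowest among them, and LCM20 replicate 1 was the highest captured array. Cyp4a3, a hydroxylase that makes vasoconstrictor products of arachidonic acid, had signals of 6614, 7079, 2506 and 5335 in the sieved arrays, 712, 498, 543, 463 and 488 in LCM800 and 1434, 279, 640 and 251 in LCM20. The groups did not overlap, and the difference was -3.08 ± 0.40 and -3.12 ± 0.42 (adjusted p = 1.91e-05 and 3.66e-05).

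Cyp4a8 had signals of 10379, 10028, 5328 and 8797 in the sieved arrays, 1941, 841, 1579, 1296 and 1395 in LCM800 and 2704, 425, 2142 and 746 in LCM20. Its difference was -2.56 ± 0.43 and -2.75 ± 0.45, with no overlap between sieved and captured arrays. A dimmer probe set of Cyp4a8 showed deeper falls of -4.61 ± 0.53 and -4.04 ± 0.55, in the same direction. Cyp4b1, an oxidiser of fatty acids and foreign compounds, had signals of 2803, 3693, 1144 and 2731 in the sieved arrays, 1006, 842, 648, 844 and 859 in LCM800 and 1278, 791, 1656 and 685 in LCM20. It fell by 1.45 ± 0.31 in LCM800 (adjusted p = 0.00133) and by 1.15 ± 0.33 in LCM20 (adjusted p = 0.0102). The ranges overlapped in LCM20 only, where sieved replicate 3 lay within the LCM20 range.

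Cyp4a1 differed from the other Cyp4a genes. Its signals were 3380, 3212, 1137 and 3160 in the sieved arrays, 4171, 1594, 3899, 924 and 1614 in LCM800 and 1089, 293, 772 and 472 in LCM20, so that LCM800 replicates 1 and 3 were the highest arrays of all, and the LCM20 arrays with LCM800 replicate 4 the lowest. It fell by 1.97 ± 0.48 in LCM20 (adjusted p = 0.00381), while the LCM800 difference was -0.26 ± 0.46 (adjusted p = 0.654). Without LCM800 replicates 1 to 3 and sieved replicate 3 the LCM800 difference was -1.36 with an adjusted p of 0.015. That alternative was chosen after the values were seen. It drops the highest LCM800 arrays and the lowest sieved array of this gene, so a fall was favoured and nothing is tested. The test of Cyp4a1 between LCM20 and LCM800 gave -1.71 ± 0.46 (adjusted p = 0.1), and without LCM800 replicate 4 it gave -1.99 with an adjusted p of 0.0278.

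The 5 Cyp4f genes went in different directions. Cyp4f5 had signals of 101, 36.2, 156 and 85.7 in the sieved arrays, 601, 473, 439, 340 and 469 in LCM800 and 368, 404, 578 and 321 in LCM20, and every captured array was above every sieved array. It rose by 1.76 ± 0.23 in LCM800 (adjusted p = 2.33e-05) and by 1.62 ± 0.25 in LCM20 (adjusted p = 0.000103). Cyp4f6 had signals of 834, 846, 541 and 1083 in the sieved arrays, 1325, 1372, 949, 344 and 399 in LCM800 and 401, 307, 396 and 449 in LCM20, with LCM800 replicates 4 and 5 at the level of the LCM20 arrays and replicates 1 and 2 above every sieved array. Its difference was -0.07 ± 0.35 in LCM800 (adjusted p = 0.875), and it was called lower in LCM20, at -0.95 ± 0.37 (adjusted p = 0.0461). That LCM20 call was lost without any single one of sieved replicates 1, 2 and 4 or LCM20 replicates 1 to 4 (adjusted p = 0.0583 to 0.123), and with quantile normalization (0.0503), 4 times the pseudocount (0.0503) or no filter (0.058). Without LCM800 replicates 1 to 3 the LCM800 difference was -0.99 (adjusted p = 0.00751). That choice drops the highest LCM800 arrays of this gene, so a fall was favoured and nothing is tested. Over all alternatives the LCM800 difference of Cyp4f6 ranged from -1.17 to 0.54.

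Cyp4f4 rose only slightly, by 0.56 ± 0.20 in LCM800 (adjusted p = 0.0273), with -0.02 ± 0.21 in LCM20 (adjusted p = 0.955). The LCM800 call was lost without sieved replicate 1, 2 or 4 or LCM800 replicate 2 or 4 (adjusted p = 0.0527 to 0.075), without LCM800 replicates 1 to 3 together (0.123) and with quantile normalization (0.43, adjusted p = 0.0588). Cyp4f4 passed the filter only through LCM800, the group in which it was called. Cyp4f17 was left out as dim. Cyp4v3, a fatty acid hydroxylase, gave 0.12 ± 0.25 and 0.29 ± 0.27 (adjusted p = 0.71 and 0.394). Its dimmer probe set was called higher in both comparisons, at 1.02 ± 0.22 and 0.99 ± 0.23, so its probe sets disagreed.

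**Figure D3:**
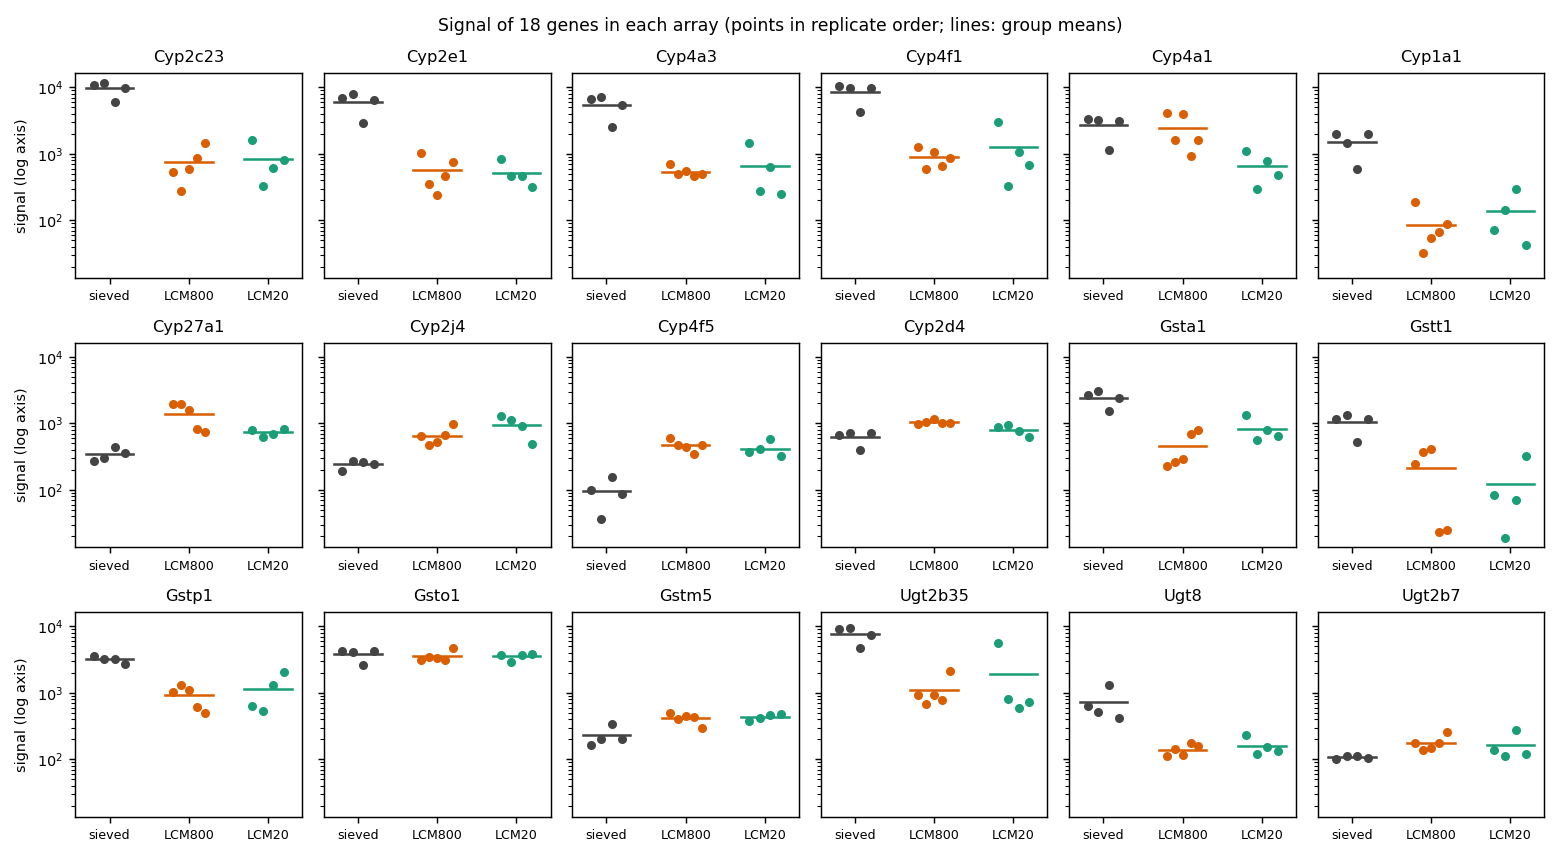
MAS5 signal on a log axis of 18 member genes in each array, grouped as sieved (black, n = 4), LCM800 (orange, n = 5) and LCM20 (green, n = 4), with points in replicate order and lines at the group means. Cyp2c23, Cyp2e1, Cyp4a3, Cyp1a1 and Ugt8 separate sieved from captured arrays downward, Cyp4f5, Cyp2j4 and Cyp27a1 upward, and Gsto1 stays between 2646 and 4755 in all arrays.

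Among the genes of arachidonic acid epoxygenases, Cyp2c23 fell and Cyp2j4 rose. Cyp2c23, the main epoxygenase of the rat kidney, had signals of 10795, 11780, 6014 and 9894 in the sieved arrays, 535, 276, 592, 878 and 1440 in LCM800 and 1631, 326, 607 and 809 in LCM20. It fell by 3.71 ± 0.42 in LCM800 and by 3.57 ± 0.44 in LCM20 (adjusted p = 5.86e-06 and 1.76e-05), the largest fall of any member in both comparisons. The ranges were far apart, and in LCM800 replicates 1 to 3 were below replicates 4 and 5. Cyp2j4 had signals of 189, 268, 262 and 246 in the sieved arrays, 638, 467, 528, 673 and 966 in LCM800 and 1284, 1133, 911 and 481 in LCM20. Every captured array was above every sieved array, and it rose by 1.20 ± 0.26 and 1.66 ± 0.27 (adjusted p = 0.00133 and 0.000189). Cyp2j3 was called higher in LCM20 (0.87 ± 0.26, adjusted p = 0.0134), a call lost without sieved replicate 2 (0.0513) or 4 (0.0544). Its LCM800 difference was 0.55 ± 0.25 (adjusted p = 0.0772), and without sieved replicate 3 it was 0.74 (adjusted p = 0.0238) and without LCM800 replicate 1 it was 0.67 (adjusted p = 0.0346).

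Of the Cyp1 to Cyp3 families, known mostly for the oxidation of drugs and foreign compounds, 17 of 30 genes were tested, with 6 higher and 4 lower in LCM800 and 4 higher and 5 lower in LCM20. In LCM800 these are 35.3% higher and 23.5% lower, near the 31.8% and 20.1% of all tested probe sets, and in LCM20 23.5% and 29.4%, beside 26.2% and 19.2%. Cyp2e1, which oxidises ethanol and small solvents, had signals of 6915, 8041, 2937 and 6348 in the sieved arrays, 1021, 348, 244, 457 and 764 in LCM800 and 835, 464, 459 and 317 in LCM20. The groups did not overlap, and the differences were -3.33 ± 0.38 and -3.37 ± 0.40 (adjusted p = 5.58e-06 and 1.13e-05). Cyp1a1, the aryl hydrocarbon receptor target that oxidises polycyclic hydrocarbons, had signals of 1990, 1437, 593 and 1980 in the sieved arrays, 187, 32, 53.6, 65.9 and 87.7 in LCM800 and 71.3, 142, 294 and 42.9 in LCM20. It lay 3.33 ± 0.39 and 2.97 ± 0.41 log2 units lower (adjusted p = 7.3e-06 and 4.4e-05), a change that the filter favoured, as stated above.

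Cyp1a2 had signals of 46.7, 49.8, 144 and 217 in the sieved arrays, 268, 268, 230, 260 and 325 in LCM800 and 389, 215, 453 and 174 in LCM20. It rose by 1.01 ± 0.29 in LCM800 and 1.09 ± 0.31 in LCM20 (adjusted p = 0.00933 and 0.00931), and the ranges overlapped in LCM20. Cyp1a2 passed the filter only through the captured groups, as did Cyp2a3, Cyp2g1 and Cyp2j3, so that their rises were favoured by it. Cyp1b1, an oxidiser of estrogens and hydrocarbons, gave 0.49 ± 0.23 and 0.57 ± 0.24 (adjusted p = 0.0845 and 0.062), and without LCM20 replicate 4 the second was 0.80 (adjusted p = 0.00724). Cyp2a3 was higher in both comparisons (0.95 ± 0.22 and 0.78 ± 0.23). Cyp2c11 (0.91 ± 0.25), Cyp2g1 (0.74 ± 0.22) and Cyp2d4 were called higher in LCM800 and not in LCM20. Without LCM20 replicate 4, Cyp2c11 was also called in LCM20 (0.94, adjusted p = 0.00284), as was Cyp2g1 (0.66, adjusted p = 0.0327). The test between the captured groups called none of these genes. Cyp2t1 was called lower in LCM20 (-0.52 ± 0.20, adjusted p = 0.0387), and the call was lost without any single sieved array but replicate 3 or any single LCM20 array (adjusted p = 0.0541 to 0.112), and with no filter (0.0585).

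The Cyp2d subfamily split. Cyp2d2, an oxidiser of many drugs, had signals of 4734, 5261, 2078 and 5325 in the sieved arrays, 983, 622, 842, 376 and 438 in LCM800 and 573, 166, 542 and 275 in LCM20. Every sieved array was above every captured array, and the differences were -2.61 ± 0.36 and -3.31 ± 0.38 (adjusted p = 3.41e-05 and 9.71e-06). Cyp2d4 had signals of 661, 715, 394 and 722 in the sieved arrays, 970, 1029, 1156, 1016 and 1019 in LCM800 and 865, 927, 767 and 626 in LCM20. In LCM800 all 5 arrays were above the sieved arrays and within a narrow range, with a difference of 0.71 ± 0.20 (adjusted p = 0.00791). In LCM20 the groups overlapped and the difference was 0.34 ± 0.21 (adjusted p = 0.195), whereas the dimmer probe set of Cyp2d4 was higher in both comparisons, at 0.78 ± 0.18 and 0.95 ± 0.19.

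Cyp2d2 with Cyp2d4, and Cyp4f1 with Cyp4f5, are subfamily neighbours on chromosome 7 with calls in opposite directions in LCM800. The 250 bases before their starts are printed to show how the upstream sequence of such neighbours differs, in RefSeq's GRCr8 assembly. These pairs were chosen after their values were seen. Letters run 5′ to 3′ on the gene's strand, and capitals mark matches on either strand to 5 short motifs: the HNF1 half-site GTTAAT, the nuclear receptor half-site AGGTCA, the antioxidant response core TGACNNNGC, the xenobiotic response core GCGTG and the TATA box TATAAA. The windows are chr7:115819282-115819531 for Cyp2d2, chr7:115771822-115772071 for Cyp2d4 and chr7:12672554-12672803 for Cyp4f1, all on the minus strand, and chr7:12194387-12194636 for Cyp4f5 on the plus strand.
Cyp2d2: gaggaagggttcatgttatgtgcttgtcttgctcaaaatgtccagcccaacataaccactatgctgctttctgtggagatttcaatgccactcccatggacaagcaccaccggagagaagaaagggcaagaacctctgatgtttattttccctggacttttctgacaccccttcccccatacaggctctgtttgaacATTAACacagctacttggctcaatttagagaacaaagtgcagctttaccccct
Cyp2d4: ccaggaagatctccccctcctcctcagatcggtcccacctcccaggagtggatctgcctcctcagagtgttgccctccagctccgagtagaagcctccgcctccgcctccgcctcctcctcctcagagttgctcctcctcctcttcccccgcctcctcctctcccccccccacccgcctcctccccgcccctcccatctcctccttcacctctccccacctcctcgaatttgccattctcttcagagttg
Cyp4f1: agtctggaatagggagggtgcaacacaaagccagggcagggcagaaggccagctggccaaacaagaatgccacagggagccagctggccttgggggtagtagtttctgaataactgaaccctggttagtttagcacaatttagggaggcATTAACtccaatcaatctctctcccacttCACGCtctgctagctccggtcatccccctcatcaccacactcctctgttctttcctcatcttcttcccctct
Cyp4f5: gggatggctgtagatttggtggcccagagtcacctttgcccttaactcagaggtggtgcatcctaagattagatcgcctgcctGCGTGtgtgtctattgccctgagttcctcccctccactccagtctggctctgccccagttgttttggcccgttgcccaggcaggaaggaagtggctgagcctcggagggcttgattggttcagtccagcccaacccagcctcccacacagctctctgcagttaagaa

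The windows of Cyp2d2 and Cyp4f1, the genes that fell, each held the reverse form of the HNF1 half-site, at 53 and 101 bases before the start. Cyp4f1 also held the reverse xenobiotic core at 72 bases, Cyp4f5 the forward form at 167 bases, and Cyp2d4 none of the 5 motifs. No matches overlapped. Among 33469 RefSeq windows of this length, 6.45% held the HNF1 half-site, 14.1% the nuclear receptor half-site, 10.1% the antioxidant core, 25.9% the xenobiotic core and 12.9% the TATA box. Of 62 windows of 61 members, 5, 16, 9, 14 and 18 held them. The HNF1 half-site stood in 2 of 14 windows of members lower in LCM800 and in 1 of 10 windows of members higher. A match is a run of letters and not a binding site.

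The 13 genes from Cyp7 to Cyp51 make and clear sterols, bile acids, steroid hormones, retinoids and vitamin D. Of the 7 tested, 2 were higher and 0 lower in LCM800, and 1 higher and 0 lower in LCM20. The higher calls are 28.6% of the 7 in LCM800 and 14.3% in LCM20. All 7 had a sieved mean under 1000. Among all tested probe sets under that level, 37.4% were higher in LCM800 and 29.7% in LCM20, and 11.9% were lower in each comparison. Cyp27a1, the mitochondrial hydroxylase of sterol side chains, had signals of 267, 304, 433 and 360 in the sieved arrays, 1924, 1922, 1560, 827 and 736 in LCM800 and 781, 624, 691 and 833 in LCM20. All captured arrays were above all sieved arrays, and within LCM800 replicates 1 to 3 were above replicates 4 and 5. It rose by 1.76 ± 0.28 in LCM800 (adjusted p = 9.65e-05) and by 0.98 ± 0.29 in LCM20 (adjusted p = 0.0123). The difference between LCM20 and LCM800 was -0.77 ± 0.28 with all arrays (adjusted p = 0.18). Without LCM800 replicates 4 and 5 it was -1.23 (adjusted p = 0.000962), a choice that favoured a difference, since those arrays lay within the LCM20 range.

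Cyp7a1, the rate-limiting enzyme of bile acid synthesis, was called higher in LCM800 at 0.95 ± 0.25 (adjusted p = 0.00472), with signals of 189, 133, 141 and 124 in the sieved arrays, 450, 390, 179, 336 and 431 in LCM800 and 212, 115, 297 and 188 in LCM20. One LCM800 array lay inside the sieved range, and the LCM20 difference was 0.30 ± 0.26 (adjusted p = 0.356). Cyp27b1, the kidney enzyme that activates vitamin D, gave 0.49 ± 0.20 (adjusted p = 0.0549) and 0.42 ± 0.21 (adjusted p = 0.119). The first passed without LCM800 replicate 1 (0.54, adjusted p = 0.0443) or 3 (0.55, adjusted p = 0.0458). Cyp11a1, which starts steroid synthesis from cholesterol, gave 0.27 ± 0.22 and 0.40 ± 0.24, and Cyp51, a demethylase of cholesterol synthesis, 0.07 ± 0.34 and 0.54 ± 0.36, with no call. Cyp24a1, which degrades vitamin D, was not analysed here.

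Of the 13 tested Gst genes, 46.2% were lower in each comparison and 15.4% higher. Among all tested probe sets 20.1% and 19.2% were lower and 31.8% and 26.2% higher. A sieved mean of 1000 or more was found in 8 of the 13, of which 5 were lower in each comparison. That is 62.5% of those 8, beside 49.6% and 45.3% of all probe sets at or above that signal. The level was chosen after the values were seen, so these shares describe the genes and test nothing. Of the 3 alpha genes, which conjugate products of lipid peroxidation, Gsta1 had signals of 2685, 3061, 1528 and 2440 in the sieved arrays, 227, 266, 294, 702 and 784 in LCM800 and 1354, 557, 792 and 635 in LCM20. All captured arrays were below all sieved arrays, and within LCM800 replicates 1 to 3 were below replicates 4 and 5. It fell by 2.37 ± 0.35 in LCM800 (adjusted p = 5.42e-05) and by 1.50 ± 0.37 in LCM20 (adjusted p = 0.00378). Gsta4, specialised for lipid aldehydes, had signals of 3761, 3857, 1546 and 3217 in the sieved arrays, 1121, 471, 463, 1055 and 2169 in LCM800 and 3509, 1142, 1331 and 1205 in LCM20. The ranges overlapped, with LCM20 replicate 1 near the sieved arrays.

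Gsta4 fell by 1.63 ± 0.44 in LCM800 (adjusted p = 0.00561), a call lost without LCM800 replicates 1 to 3 (-0.92, adjusted p = 0.124). In LCM20 it differed by -0.84 ± 0.46 (adjusted p = 0.143), and without LCM20 replicate 1 by -1.21 (adjusted p = 0.0417). Gsta3 gave -0.27 ± 0.23 and -0.05 ± 0.24 with no call (adjusted p = 0.331 and 0.889). Of the alpha genes only Gsta1 was thus called in both comparisons.

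Of the 6 mu genes 3 were tested, of which Gstm5 and Gstm7 rose in both comparisons and Gstm2 fell in LCM800. Gstm5 had signals of 166, 205, 345 and 201 in the sieved arrays, 497, 400, 451, 429 and 292 in LCM800 and 382, 421, 460 and 476 in LCM20, and rose by 0.72 ± 0.20 and 0.80 ± 0.21 (adjusted p = 0.00694 and 0.00632). In LCM800 replicate 5 lay inside the sieved range, and the LCM800 call was lost without LCM800 replicates 1 to 3 (0.55, adjusted p = 0.0933). Gstm7 rose by 0.64 ± 0.21 and 0.63 ± 0.23 (adjusted p = 0.02 and 0.0314). The LCM800 call of Gstm7 was lost without sieved replicate 1 (0.0587) or 3 (0.0631), and its LCM20 call without sieved replicate 1 (0.0816) or 3 (0.0846) or LCM20 replicate 1 (0.0853) or 3 (0.0638). Gstm2 had signals of 600, 554, 373 and 372 in the sieved arrays, 192, 307, 267, 210 and 224 in LCM800 and 269, 193, 294 and 567 in LCM20, fell by 0.81 ± 0.24 in LCM800 (adjusted p = 0.0115) and gave -0.50 ± 0.26 in LCM20 (adjusted p = 0.122). LCM20 replicate 4 was the highest captured array for Gstm2, and without it the LCM20 difference was -0.75 (adjusted p = 0.0148). Gstm1, Gstm3 and Gstm4 were left out as dim. Their untested LCM800 differences were -1.04, 0.26 and 0.96.

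Of the 3 theta genes, which act on small halogenated compounds, Gstt1 had signals of 1173, 1352, 527 and 1156 in the sieved arrays, 243, 367, 416, 23.3 and 25.1 in LCM800 and 82.2, 18.9, 70.4 and 318 in LCM20. All captured arrays were below all sieved arrays, and LCM800 replicates 4 and 5 were about as low as the lowest LCM20 array. It fell by 2.27 ± 0.53 and 2.73 ± 0.56 (adjusted p = 0.00235 and 0.00107). Gstt2 had signals of 661, 586, 288 and 514 in the sieved arrays, 440, 513, 271, 54 and 44.9 in LCM800 and 80.2, 88.3, 168 and 88.7 in LCM20, with the same low pair in LCM800. It fell by 1.73 ± 0.46 in LCM20 (adjusted p = 0.00696), and its LCM800 difference was -1.08 ± 0.44 (adjusted p = 0.0506). That difference passed without sieved replicate 3 (-1.30, adjusted p = 0.0348), LCM800 replicate 1 (-1.31, adjusted p = 0.0221) or LCM800 replicate 2 (-1.36, adjusted p = 0.0149). It was -2.28 (adjusted p = 0.000112) without LCM800 replicates 1 to 3 and -0.27 (adjusted p = 0.422) without replicates 4 and 5. Gstt3 gave -0.50 ± 0.33 and -0.69 ± 0.34 with no call.

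The remaining Gst genes hold 1 member each of 4 types. Gstp1, the pi enzyme, had signals of 3604, 3244, 3193 and 2721 in the sieved arrays, 1043, 1321, 1122, 620 and 498 in LCM800 and 636, 537, 1293 and 2078 in LCM20. The sieved arrays were all above the captured arrays, sieved replicate 3 included, and the differences were -1.80 ± 0.35 and -1.62 ± 0.37 (adjusted p = 0.000612 and 0.0024). Gstz1, an enzyme of tyrosine breakdown, fell by 0.74 ± 0.27 in LCM800 and by 1.15 ± 0.29 in LCM20 (adjusted p = 0.0317 and 0.00427). The LCM800 call of Gstz1 was lost without sieved replicate 1 (0.0938), 2 (0.0832) or 4 (0.0789) or LCM800 replicate 4 (0.071). Gstk1, the mitochondrial and peroxisomal enzyme, gave -0.60 ± 0.32 in LCM800 (adjusted p = 0.134) and fell by 1.01 ± 0.34 in LCM20 (adjusted p = 0.0245). Without LCM800 replicates 1 to 3 the LCM800 difference of Gstk1 was -1.16 (adjusted p = 0.0213), without replicates 4 and 5 it was -0.22 (adjusted p = 0.533), and array weights also gave a call (-0.62, adjusted p = 0.0143). The LCM20 call was lost without sieved replicate 1, 2 or 4 or LCM20 replicate 2 or 3 (adjusted p = 0.0565 to 0.0754). Gsto1, which reduces dehydroascorbate, had signals of 4204, 4148, 2646 and 4195 in the sieved arrays, 3086, 3420, 3376, 3092 and 4755 in LCM800 and 3742, 2885, 3738 and 3812 in LCM20. The groups overlapped, LCM800 replicate 5 was the highest array and sieved replicate 3 the lowest, with differences of -0.09 ± 0.22 and -0.08 ± 0.23 (adjusted p = 0.743 and 0.793).

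Of the 7 Ugt genes 3 were tested, and 2 fell in both comparisons. Ugt2b35, of the family that glucuronidates steroids and drugs, had signals of 9216, 9491, 4668 and 7508 in the sieved arrays, 915, 674, 940, 792 and 2108 in LCM800 and 5611, 798, 590 and 716 in LCM20. LCM20 replicate 1 lay within the sieved range and far above the other captured arrays. It fell by 2.82 ± 0.52 in LCM800 (adjusted p = 0.000353) and by 2.58 ± 0.54 in LCM20 (adjusted p = 0.0013). Ugt8, which adds galactose to ceramide rather than glucuronic acid to a drug, had signals of 633, 511, 1319 and 419 in the sieved arrays, 111, 142, 117, 174 and 158 in LCM800 and 232, 121, 151 and 133 in LCM20. All sieved arrays were above all captured arrays, and sieved replicate 3 was the highest. It fell by 1.82 ± 0.27 and 1.71 ± 0.28 (adjusted p = 5.18e-05 and 0.000183). Ugt2b7 gave 0.49 ± 0.22 and 0.36 ± 0.24 with no call (adjusted p = 0.079 and 0.228), although its captured arrays were all above its sieved arrays. Ugt2b1, left out as dim, had untested differences of 0.71 and 0.92.

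The 27 genes left out as dim, among them Cyp3a2, Cyp3a18, Cyp17a1, Cyp19a1, Cyp21a1 and 4 Ugt2 genes, had untested differences of -1.04 to 0.96 in LCM800 and -1.37 to 1.05 in LCM20. The widest of both ends were Gstm1 and Gstm4.

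The sieved arrays themselves varied in these genes. Of the 16 genes lower in LCM800, sieved replicate 3 was the lowest sieved array in 13, and of the 19 lower in LCM20 in 17, where it was lowest in 39.7% of all tested probe sets. It was between the others for Gstp1 and Gstm2, and highest for Ugt8, at 1319 against 419 to 633. Of the 12 genes higher in LCM800 it was lowest in 4 and highest in 4. The same array had the lowest proximal tubule and the highest podocyte marker sum of the sieved group, and whether this bears on its member genes was not tested.

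**Figure D4:**
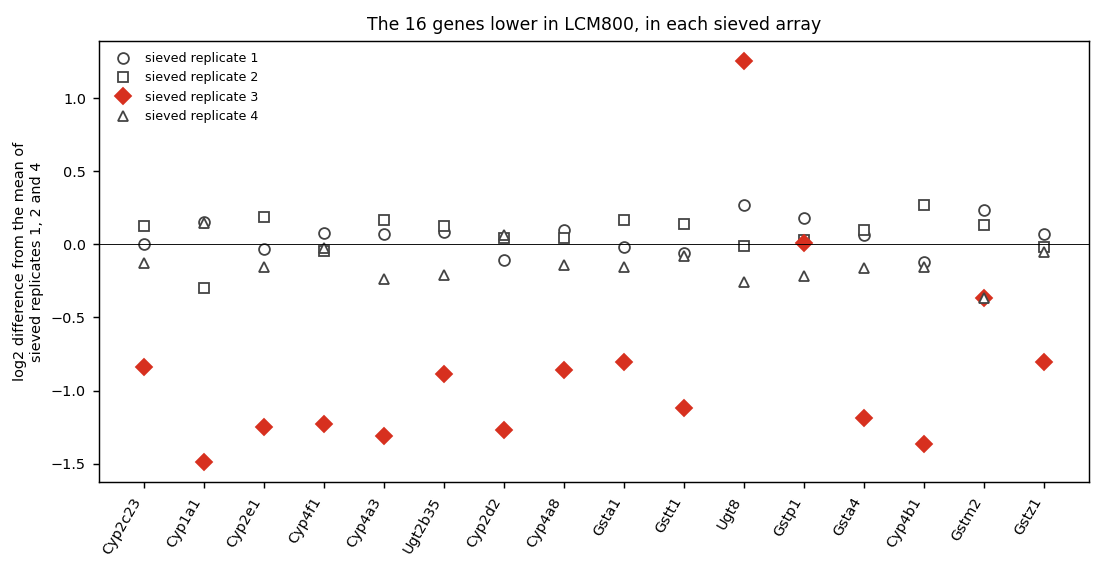
Log2 difference of each sieved array from the mean of sieved replicates 1, 2 and 4, for the 16 genes lower in LCM800, with replicate 3 as filled diamonds. Replicate 3 is the lowest array in 13 of the 16 genes and the highest for Ugt8.

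Between LCM20 and LCM800 none of the 49 tested members was called, beside 17 of all 11106 probe sets (0.153%). At an unadjusted p under 0.05 there were 6 members, beside 17.6% of all tested probe sets, and the lowest adjusted p among members was 0.1, for Cyp4a1. The class medians were -0.08 for Cyp, 0.02 for Gst and -0.04 for Ugt, beside -0.06 for all tested probe sets. The result rests on the LCM800 arrays used: without LCM800 replicate 4 the count was 1, beside 245 higher and 257 lower among all 11106 probe sets. Without replicates 4 and 5 it was 7 (2 higher, 5 lower), beside 1264 higher and 1317 lower among all, a larger share than among the members. Replicates 1 to 3 correlated with LCM20 arrays at 0.65 to 0.86, and replicates 4 and 5 at 0.86 to 0.91. Leaving out replicates 4 and 5 thus favoured differences between the groups, and the gene values of that alternative describe the choice of arrays and test nothing. With those 2 arrays left out, Gsta1 (1.39, adjusted p = 0.00388) and Gsta4 (1.26, adjusted p = 0.0401) were higher in LCM20, and Cyp27a1 (-1.23), Cyp4f6 (-1.49, adjusted p = 0.00078), Cyp4a1 (-2.21, adjusted p = 0.00341), Gstt1 (-1.33, adjusted p = 0.0329) and Gstt2 (-1.45, adjusted p = 0.00252) were lower. Cyp2d4 was the only tested member whose ranges did not overlap between LCM20 and LCM800, beside 3.84% of all tested probe sets, at -0.37 ± 0.20 (adjusted p = 0.353).

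The partners of these enzymes, a list of 77 genes of electron supply, other drug oxidation and conjugation, glutathione supply, transport and regulation, had 60 genes on the array and 50 tested. In LCM800 against sieved 8 were higher and 24 lower, and in LCM20 against sieved 6 were higher and 20 lower, with medians of -0.55 and -0.51. All tested probe sets had 31.8% higher and 20.1% lower with a median of 0.22 in LCM800, and 26.2% higher and 19.2% lower with a median of 0.17 in LCM20. The counts of 5 to 14 tested genes per subgroup below are to be read against the same shares. Of 5 tested electron donors, Cyb5a fell by 3.22 ± 0.38 in LCM800 and 1.71 ± 0.40 in LCM20, and Por, the electron donor of most Cyp enzymes, by 1.43 ± 0.33 and 1.66 ± 0.35. Fdx1, which serves the mitochondrial Cyp enzymes such as Cyp27a1, rose by 1.07 ± 0.29 and 1.70 ± 0.31. In cofactor supply 5 of 10 tested genes were lower in each comparison, led by Gclc, the limiting enzyme of glutathione synthesis (-3.92 ± 0.42 and -3.30 ± 0.45), and Ggt1, which splits extracellular glutathione (-3.92 ± 0.45 and -3.88 ± 0.47). Ugp2, which makes UDP-glucose, was higher in LCM20 (1.23 ± 0.37).

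Of 8 tested genes of other conjugation, 2 were higher and 4 lower in LCM800, and 0 higher and 3 lower in LCM20. Mgst3 (-1.97 and -2.27) and the sulfotransferase Sult1b1 (-1.94 and -1.68) fell in both comparisons, and Mgst2 (0.87) and Sult1c3 (0.92) rose in LCM800. Of 14 genes of other oxidation and hydrolysis, 3 were higher and 7 lower in LCM800, and 2 higher and 4 lower in LCM20. Aldh2 (-2.70 and -2.36), Ces1d (-2.57 and -1.89) and Ephx1 (-1.78 and -2.38) fell in both, while the quinone reductase Nqo1 rose in both (1.22 and 1.06), as Cbr1 did in LCM800 (0.89) and Aldh3a2 in LCM20 (1.19).

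Of 6 tested transporters, 3 were lower in LCM800, and 4 lower and 1 higher in LCM20. The organic anion transporters Slc22a6 (-3.14 and -3.77) and Slc22a8 (-2.90 and -2.95) are also 2 of the proximal tubule markers, and Abcc2 was higher in LCM20 (0.65). Of 7 tested regulators, Hnf4a, a factor of liver and proximal tubule genes, fell by 1.62 ± 0.35 and 2.08 ± 0.36. Keap1, the inhibitor of the antioxidant response, rose by 0.97 ± 0.21 and 0.70 ± 0.22. Ahr, the receptor that induces Cyp1a1, rose by 0.70 ± 0.22 in LCM800, and the bile acid receptor Nr1h4 fell by 1.14 ± 0.34 in LCM20. Between LCM20 and LCM800 none of the 50 partner genes was called.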

How the data were processed

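RNA of 13 glomerular samples (sieved n = 4, LCM800 n = 5, LCM20 n = 4) was measured on Affymetrix rat 230A arrays. The values deposited by the authors are MAS5 signal intensities, per the submitters' processing notes. They are linear and scaled to the same trimmed mean on each array. What the title number 20 counts is not given in the sources used here. Of 15923 probe sets, 57 controls were set aside. The platform annotation gave 1 symbol to 12789 probe sets, several to 312 and none to 2765. Signals were used as log2(signal + 65.29), the 20th percentile of all signals, and the 30% of probe sets with the lowest mean were left out of tests, with no further normalization. A single model over the 3 groups was fitted in R 4.3.3 by limma 3.58.1 (lmFit, then eBayes with intensity trend, Benjamini-Hochberg adjustment over all 11106 tested probe sets, threshold 0.05), and the fit was tested on simulated data. With 4 or 5 arrays per group, the number of arrays limits the precision. Alternatives were other scalings, pseudocounts, filters, weights, probe set rules, a replicate block and samples left out.

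Genes were named by rule: per comparison and class the 4 largest rises and 4 largest falls that passed the test with ranges that did not overlap, members against the direction of most called members of their class, and a list of known kidney genes. For partners it was the 2 largest rises and falls of each subgroup. Other called members are named with their values. The members, lists and markers were chosen with earlier results of these data known. Of that list, Cyp24a1 and Cyp4a2 were not analysed here, Cyp51a1 is reported under the symbol Cyp51, and Gsta2, Ugt1a1 and Ugt1a6 only through probe sets of several genes. Promoter windows come from RefSeq's GRCr8 assembly and matched 61 of the 76 genes. No probe set positions were used.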

Additional observations from a re-analysis of the deposited data

Results flagged for a closer look

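Single arrays lay far from the other arrays of their group in 15 of 123 tests over members and class medians. Of the 15, 7 were sieved replicate 3 being low. Chance gives about 1 in 20 for a single test. The tests are not independent, since an array that stands apart can move many genes together, so the count cannot be read against that rate. The share over all probe sets is not given here. That array read 2078 for Cyp2d2 (others 4734 to 5325), 394 for Cyp2d4 (others 661 to 722), 1137 for Cyp4a1 (others 3160 to 3380) and 4236 for Cyp4f1 (others 9667 to 10538). For Gst genes it read 2646 for Gsto1 (others 4148 to 4204), 527 for Gstt1 (others 1156 to 1352) and 1098 for Gstz1 (others 1891 to 2068).

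In LCM20, replicate 1 was high at 3509 for Gsta4 (others 1142 to 1331) and at 5611 for Ugt2b35 (others 590 to 798). It also had the highest proximal tubule marker sum of its group, at 26135 against 9370 to 18242. Replicate 2 was low for Gsto1 at 2885 (others 3738 to 3812), replicate 3 high for Gstt2 at 168 (others 80.2 to 88.7) and replicate 4 low for Gsta3 at 316 (others 485 to 524). In LCM800, replicate 5 was high for Gsto1 at 4755 (others 3086 to 3420) and for Ugt2b35 at 2108 (others 674 to 940), and replicate 4 had a Gst class median of -1.18.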

How the results depend on the processing

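Of 55 calls of named members, 42 held under every alternative in which the gene was tested, 13 were lost under at least 1 and 0 reversed. Alternatives whose filter left a gene out were not counted for that gene. Of 68 differences with no call, 22 were called under at least 1. Leaving out the lowest 60% of probe sets gave 15 called members in LCM800 against sieved and 16 in LCM20 against sieved, of 22 tested. Leaving out 1 array gave 25 to 31 and 23 to 29. Between LCM20 and LCM800 array weights gave 4 called members (of all probe sets 448 higher and 411 lower), leaving out 1 array 0 to 1, and leaving out LCM800 replicates 4 and 5 gave 7 (of all 1264 higher and 1317 lower). The Cyp median in LCM800 was 0.16 with array medians set equal, 0.73 with no pseudocount, 0.15 with 4 times the pseudocount and 0.21 to 0.36 without 1 array. In LCM20 it was 0.41 with no pseudocount. The Ugt median was 0.55 in LCM800 and 0.37 in LCM20 with no pseudocount, and 0.09 in LCM800 with 4 times the pseudocount. The Gst median in LCM800 was -0.26 without LCM800 replicates 4 and 5, and -1.12 without sieved replicate 3 and LCM800 replicates 1, 2 and 3, an alternative chosen after seeing the data. The cause was not tested. Setting array medians equal moved the median of all tested probe sets in LCM800 from 0.22 to 0.12. No label ties a replicate number to a rat. Arrays of the same number correlated at -0.24 to 0.23 in their deviations from the group means (different numbers -0.42 to 0.37). These values show no pairing by number, but they cannot exclude that groups share rats, since single arrays that stood apart also shape the deviations. The main fit treated all arrays as independent. With the replicate number as a block, 28 (13 higher, 15 lower), 27 and 0 members were called; Gsta4 in LCM20 was then called (adjusted p = 0.043), and Gstz1 in LCM800 (0.0642) and Cyp2t1 in LCM20 (0.0663) were not. What signal over background limits is the dim members: 27 of 76 were not tested.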

Other observations

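Probe sets that the annotation gives to several genes are outside the counts above. A pair of probe sets shared by Ugt1a genes, the bilirubin and phenol glucuronidating enzymes, was lower in both comparisons, at -3.02 ± 0.44 and -2.87 ± 0.38 in LCM800 and -2.61 ± 0.46 and -3.20 ± 0.40 in LCM20 (limma adjusted p = 2.4e-05 to 0.000317). The probe set of Gsta5 and Gsta2 was lower by -1.20 ± 0.30 and -1.60 ± 0.32. That of Cyp2b2 and Cyp2b1 was higher by 0.98 ± 0.23 and 1.11 ± 0.25, and that of Cyp11b1, Cyp11b3 and Cyp11b2 by 0.81 ± 0.21 and 0.67 ± 0.22. The probe set of Cyp2d5 and Cyp2d1 was left out as dim, with untested differences of -2.16 and -2.27. Which gene of each set the signal comes from cannot be told apart.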
